A study of Arabidopsis thaliana with 8 samples.

Results

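The 7 genes described here act early in the making of lateral roots in Arabidopsis thaliana: the auxin response factors ARF7 (AT5G20730, listed in the gene table under its other name NPH4) and ARF19 (AT1G19220), their repressor IAA14 (AT4G14550), the LOB-domain genes LBD16 (AT2G42430), LBD18 (AT2G45420) and LBD29 (AT3G58190), and PUCHI (AT5G18560), a gene of the AP2/ERF class. They were chosen by locus, each represented by its probe with the highest mean processed signal, and all 7 were found among 25383 loci with a probe. The rule used no difference between tissues.

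As background, lateral roots arise when auxin makes a few pericycle cells, deep in the root, divide. Without auxin, the Aux/IAA protein IAA14 (SOLITARY-ROOT) holds ARF7 and ARF19 inactive. Auxin leads to the breakdown of IAA14, the freed ARF proteins switch on LBD16, LBD18 and LBD29, and these act on cell cycle and cell wall genes, while PUCHI acts downstream in the shape of the young primordium. PUCHI also acts in flowers, where it works with BOP1 and BOP2 to set the identity of the floral meristem.

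The arrays compared healthy tissue, namely roots and flower buds of accession Col-0, both from plants aged 6 weeks and raised hydroponically, with no treatment or mutation named in the labels. Each tissue had 4 arrays, and each array held RNA of tissue pooled from 8 to 10 plants, so that p-values measure the spread between pools. The 75th percentile of the processed signal, which sets the scale of an array, was 2560 to 3574 on the root arrays and 4661 to 4803 on the flower bud arrays. A level below is the log2 of the probe's signal relative to that percentile, and levels of different probes are not comparable. Levels are given per array in the order of replicates 1 to 4. Each difference is the flower bud mean less the root mean, in log2 units ± SE, with n = 4 arrays per tissue, from the limma fit over 22264 genes. Called genes had both an adjusted p under 0.05 and a change of at least 2-fold.

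The tissue labels were checked on marker genes. All 5 root markers were higher in roots and all 6 flower bud markers higher in flower buds. Their summed signal in the wrong tissue was 2.67% to 3.25% of the 75th percentile for root markers in flower buds and 23.4% to 34.1% for flower bud markers in roots, against 18992% to 21306% and 2232% to 2950% in their own tissue. In flower buds, the root markers TIP2;3, CASP1 and PHT1;1 were well above background on 4, 3 and 3 of 4 arrays and EXPA7 and AGL17 on none. In roots, PI and AG reached that level on 4 and 1 of 4 arrays, and SEP1, SEP2, AP3 and CRC on none. All 8 arrays lay on 1 slide, roots in row 1 and flower buds in row 2, and tissue and row cannot therefore be told apart. In tissue of mixed cells, fewer cells of a type and less RNA per cell cannot be told apart either.

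The pathway was uneven. LBD16, LBD18, LBD29 and PUCHI were called higher in roots, while ARF7, ARF19 and IAA14 differed by less than 2-fold on their chosen probes, and no member was called higher in flower buds. Thus 4 of 7 members were called higher in roots, against 24.8% of all genes tested, and 0 of 7 higher in flower buds, against 30.2%. LBD16, LBD29 and PUCHI entered the test through the root arrays alone, and any call of theirs was bound to point towards roots. Markers of the stele and pericycle, the inner root tissues from which lateral roots arise, moved with them: 3 of 4 were called towards roots, SKOR at -6.83 ± 0.21, PHO1 at -6.26 ± 0.12 and SKP2B at -1.60 ± 0.18, while AHP6 was not called, at -0.77. Their summed level was 1997% to 2604% of the 75th percentile in roots and 73.0% to 79.1% in flower buds, all 4 were well above background on all 8 arrays, and their part in the member differences was not tested. The median difference was -2.36 over the 7 members and 0.15 over all genes tested.

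IAA14, the repressor, did not pass the test on its chosen probe. Its root levels were -0.72, -0.34, -0.95 and -1.33, and those in flower buds -0.58, -0.93, -1.32 and -1.69. The ranges of the tissues overlapped, and within each tissue the highest array stood 2.00-fold (root) and 2.16-fold (flower bud) above the lowest. The difference was -0.30 ± 0.28 (adjusted p = 0.350), with a 95% confidence interval from -0.96 to 0.36, which leaves room for a change of almost 2-fold towards roots.

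ARF7, which activates the LBD genes, was lower in flower buds by a small and regular step. Its root levels were 1.67, 1.60, 1.74 and 1.56, and those in flower buds 0.69, 0.63, 0.71 and 0.72. The flower bud arrays lay within 1.06-fold of each other, and every root array exceeded every flower bud array. At -0.95 ± 0.08 (adjusted p = 6.89e-06), or 1.93-fold, ARF7 passed the adjusted p but fell just under the 2-fold limit. With centring on the array median the difference was -1.11 and was called.

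ARF19, the closest partner of ARF7, differed less. It stood at -1.23, -1.57, -1.43 and -1.49 in roots and at -1.81, -1.86, -1.73 and -1.99 in flower buds. The tissues did not overlap, although only 0.16 log2 units lay between the lowest root array and the highest flower bud array. The difference was -0.42 ± 0.10 (adjusted p = 0.00563), or 1.34-fold. Differences of this size were common: the adjusted p alone was under 0.05 for 82.2% of all genes tested, and root arrays lay above flower bud arrays without overlap for 36.4% and below them for 42.8%. Among the members, 6 of 7 lay above without overlap and 0 of 7 below. Of these 6, LBD16, LBD29 and PUCHI entered the test through the root arrays alone, which favoured this direction in advance.

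ARF7 and ARF19 did not move by equal steps. The within-array log2 difference ARF7 minus ARF19 changed by -0.53 from root to flower bud (exact two-sided permutation test, p = 0.0286, the smallest that 4 against 4 arrays allow). The change was -0.29 under normexp correction and -0.28 under quantile normalization, at the same exact permutation p. Of 4 pairs of members compared in this way, all had an exact permutation p of 0.0286, and the value adjusted over the 4 pairs was also 0.0286. The pairs other than ARF7 minus ARF19 include LBD16 or LBD29, which were not well above background in flower buds. Their p-values rest on background readings there and are not read as support.

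**Figure D1:**
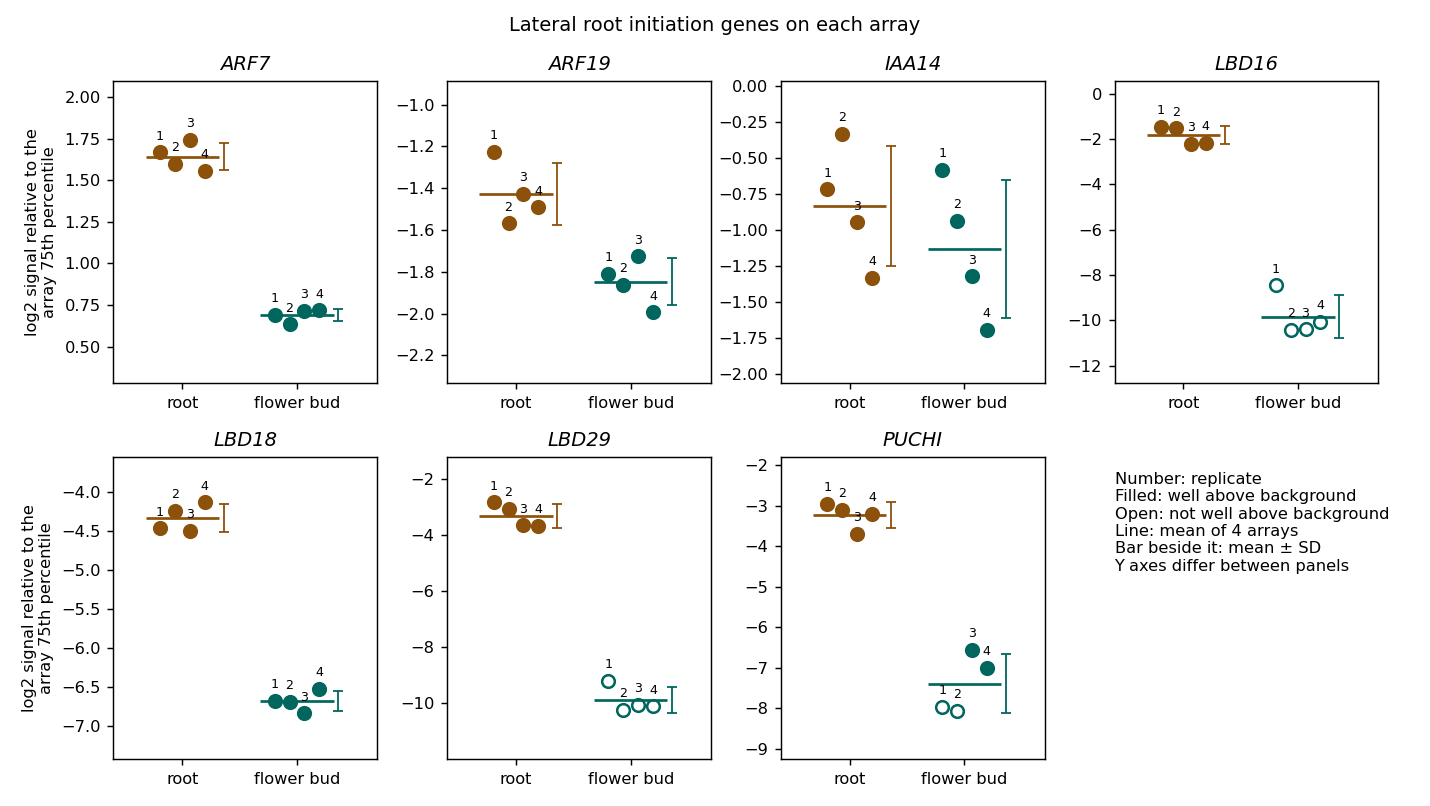
Log2 signal relative to the array's 75th percentile (y axis, a separate scale in each panel) of the 7 genes in roots (brown) and flower buds (green). Each numbered point is an array, open where not well above background, with the mean and SD beside it; the tissues overlap for IAA14 alone, and LBD16 and LBD29 are open on all 4 flower bud arrays.

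LBD16 was well above background in roots and not in flower buds. This LOB-domain transcription factor gene, a direct target of ARF7 and ARF19, had root levels of -1.47, -1.54, -2.21 and -2.16. In flower buds the probe read -8.45, -10.42, -10.39 and -10.08, and none of these arrays was well above background. In processed signal this was 688 to 1286 units in roots against 3.39 to 13.5 units in flower buds, where the lowest spots well above background read 16.0 to 19.4 units. By a bound built on probe averages, LBD16 was at least 142-fold higher in roots. The flower bud side was taken per array as the lowest probe average counted as well above background, or the probe's own if brighter. These lowest averages, at levels of -8.97, -9.26, -9.16 and -9.10, can include spots that were not well above background. A limit set by the lowest single spots would give a smaller fold. The fitted difference was -7.99 ± 0.45 (adjusted p = 6.56e-07).

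LBD29, another target of the same ARF proteins, behaved alike in detection. Its root levels were -2.84, -3.07, -3.66 and -3.68, against -9.20, -10.23, -10.06 and -10.11 in flower buds. No flower bud array was well above background, and no root array came near the flower bud values. LBD29 was at least 56.0-fold higher in roots, with a fitted difference of -6.59 ± 0.28 (adjusted p = 1.43e-07). The size of both differences depended on the treatment of dim spots: normexp background correction, run with an offset of 50 units, gave -4.32 for LBD16 and -3.02 for LBD29, both still called.

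LBD18 differed in kind from LBD16 and LBD29, since it was measured in both tissues. This LOB-domain gene acts in lateral root formation together with LBD16 and drives expansin genes during emergence. It read -4.46, -4.23, -4.49 and -4.13 in roots and -6.68, -6.69, -6.84 and -6.53 in flower buds, all well above background and without overlap between the tissues. The difference of -2.36 ± 0.12 (adjusted p = 3.13e-07) left flower buds at 19.5% of the root signal. Normexp correction gave -1.69, also called.

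LBD16 and LBD29 each changed by more than LBD18. Because neither probe was well above background in flower buds, its signal there was set to the bound on each array, a choice made after the data were seen. With that, the within-array difference LBD16 minus LBD18 changed by -4.79 from root to flower bud, and LBD18 minus LBD29 by 3.45. Each had an exact two-sided permutation p of 0.0286, but LBD16 and LBD29 entered the test through the root arrays alone. That filter favoured this direction in advance, and the p-values are not read as support. Under normexp correction the changes were -2.63 and 1.33, at the same exact permutation p. LBD16 and LBD29 cannot be ordered against each other, since both differences are bounds.

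PUCHI, too, was lower in flower buds. Its root levels were -2.96, -3.10, -3.70 and -3.20. The flower bud arrays read -7.97, -8.07, -6.56 and -7.00, with replicates 3 and 4 well above background and replicates 1 and 2 not. The lowest root array lay 2.87 log2 units above the highest flower bud array. The fitted difference was -4.16 ± 0.36 (adjusted p = 9.08e-06), or 17.9-fold, and the dim signal of flower bud replicates 1 and 2 enters it. It was -2.62 and still called under normexp correction.

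**Figure D2:**
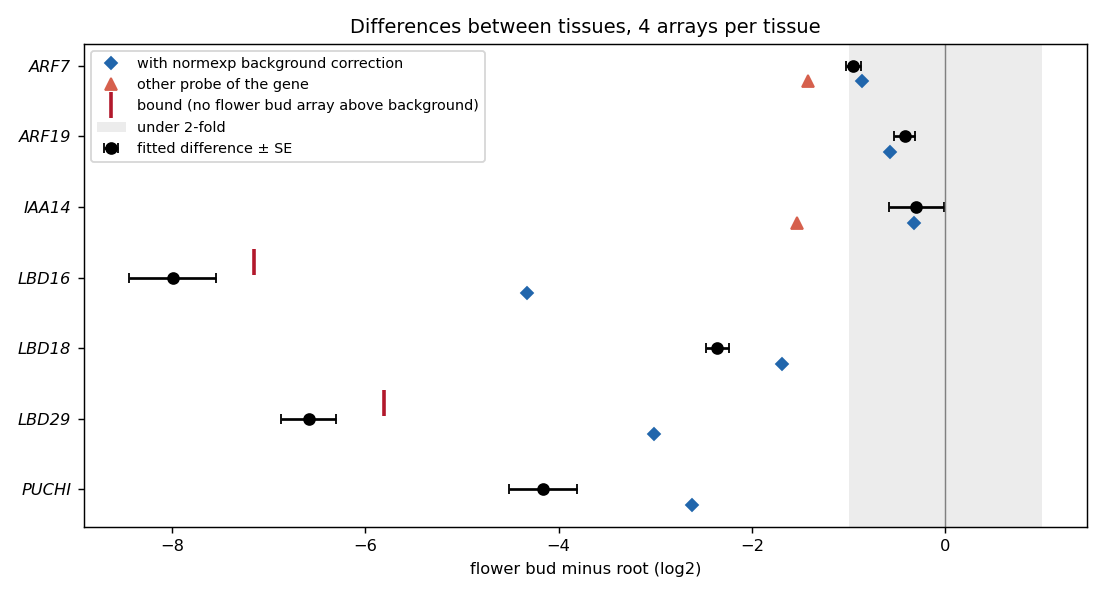
Fitted difference between flower buds and roots (x axis, log2, negative values higher in roots) of each gene as a black point with its SE, 4 arrays per tissue. Red ticks are the bounds of LBD16 and LBD29, blue diamonds the values with normexp background correction and triangles the other probe of ARF7 and of IAA14; the grey band marks differences under 2-fold, where ARF7, ARF19 and IAA14 lie on their chosen probes.

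ARF7, IAA14 and LBD18 each had a second, dimmer probe on the array, and for ARF7 and IAA14 the choice of probe decided the call. In a fit over all 30698 tested probes that match a locus, added after the data were seen, the dimmer ARF7 probe differed by -1.42 ± 0.10 (adjusted p = 2.99e-06) and was called. The dimmer IAA14 probe read -1.19, -1.10, -1.62 and -1.97 in roots and -2.76, -2.77, -3.35 and -3.14 in flower buds. On this probe the tissues did not overlap, and the difference of -1.54 ± 0.23 (adjusted p = 0.000255), or 2.90-fold, was called.

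The probes of IAA14 disagreed by more than the spread between arrays. The brighter probe exceeded the dimmer by 0.63 ± 0.12 (SD, n = 4) in roots and by 1.87 ± 0.31 (SD, n = 4) in flower buds, a change of 1.24. For ARF7 the change was 0.47. Both had an exact two-sided permutation p of 0.0286, for a comparison made in these 2 genes only and chosen after the data were seen. Whether a probe also binds transcripts of related genes or of another isoform was not tested, since no probe sequences were used here. The second LBD18 probe reached that level of detection on 0 of 8 arrays and was not tested. Among 6512 genes with more than 1 tested probe, 638, or 9.80%, had some probes called and some not.

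**Figure D3:**
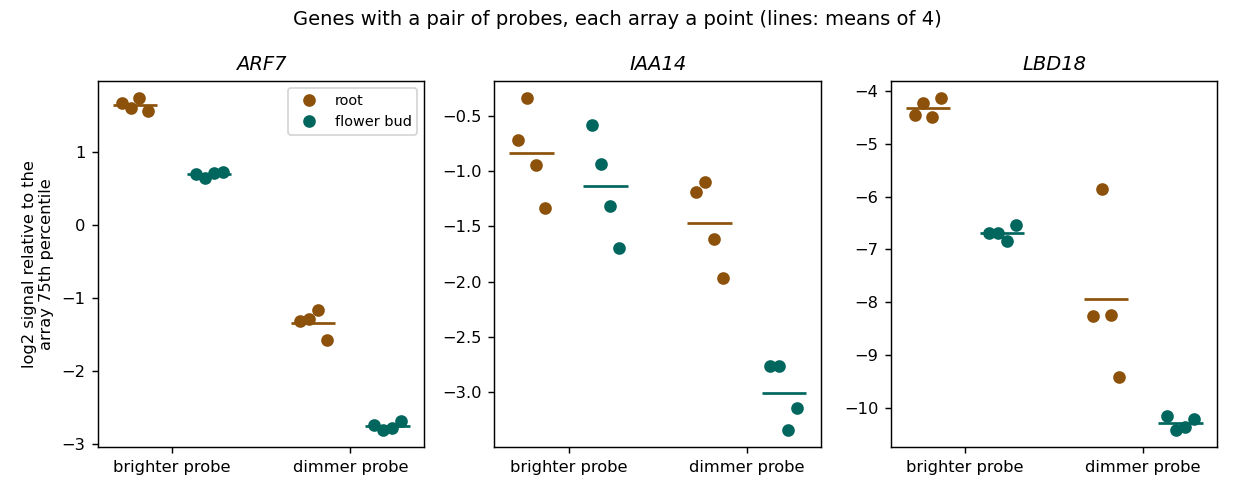
Log2 signal relative to the array's 75th percentile (y axis) of both probes of ARF7, IAA14 and LBD18, each point an array of roots (brown) or flower buds (green) and each line a mean of 4 arrays. The IAA14 tissues overlap on the brighter probe and separate on the dimmer one.

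Within roots, some members varied between pools more than others. LBD16 deviated from its root mean by 0.37, 0.31, -0.36 and -0.32 on replicates 1 to 4, and LBD29 by 0.48, 0.24, -0.35 and -0.37. Both were high in the same pools, replicates 1 and 2. IAA14 was above its root mean there as well, with deviations of 0.11, 0.50, -0.11 and -0.50 on its chosen probe. PUCHI deviated by 0.28, 0.14, -0.46 and 0.04, so that replicate 3 was the lowest, whereas LBD18 deviated by -0.13, 0.09, -0.16 and 0.20 and ARF7 by at most 0.10 in size. The median deviation of 5 cell cycle genes was 0.15, 0.19, -0.17 and -0.16 on the same arrays, that of 5 root markers 0.06, 0.16, -0.23 and 0.01, and that of 4 stele and pericycle markers -0.19, -0.04, -0.05 and 0.14. Their part in the spread of LBD16 and LBD29 was not tested. The SD pooled over both tissues was 0.06 for ARF7, under that of all but 1.19% of genes tested, 0.13 for ARF19 and 0.15 for LBD18. It was 0.72 for LBD16, 0.57 for PUCHI and 0.45 for both IAA14 and LBD29, against a median of 0.21 over all genes. For LBD16, LBD29 and PUCHI it includes flower bud arrays that were not well above background.

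The rest of the pathway was followed in 6 lists of 45 genes chosen with earlier results of these data known. Of these, 42 were tested: 13 were called in the direction of roots, 20 in that of flower buds and 9 in neither, or 78.6% called against 55.0% of all genes tested. PLT3 had no matched probe, and IDA and LBD33 were not well above background on all arrays of either tissue. By direction, 31.0% of the tested list genes were called towards roots and 47.6% towards flower buds, against 24.8% and 30.2% of all genes tested. The lists differed in direction, described next, and some of their shares lay near those of all genes. Where the called or uncalled genes of a list numbered 5 or fewer, some were named beyond the naming rule, after their values were seen.

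Auxin perception and the other auxin modules held 10 tested genes, 4 called towards roots, 3 towards flower buds and 3 not called (median -0.24). Of all genes tested, 24.8% were called towards roots and 30.2% towards flower buds. IAA28 and GATA23, a repressor and the GATA factor it controls in pericycle founder cells, were higher in roots by -2.78 ± 0.17 and -2.75 ± 0.28 (adjusted p of at most 3.04e-05). IAA3, the SHY2 repressor, and the auxin receptor gene AFB2 followed at -1.41 ± 0.22 and -1.48 ± 0.10. In the other direction, the activators ARF8, ARF5 and ARF6, which act in flower organs and in patterning, were higher in flower buds by 2.89 ± 0.13, 2.15 ± 0.12 and 2.07 ± 0.15. The receptor genes TIR1 and AFB3 and the repressor gene IAA12 were not called, at -0.30, -0.03 and -0.18.

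Members of the ARF family were thereby found on both sides of 0. Of 15 ARF genes tested, 3 were called towards roots (20.0%) and 4 towards flower buds (26.7%), against 24.8% and 30.2% of all genes tested. ARF7 and ARF19 held places 4 and 6 counted from the most root-high end. Of 26 Aux/IAA genes tested, 7 were called towards roots (26.9%) and 4 towards flower buds (15.4%), with IAA14 at place 12. IAA7, IAA16 and IAA17, close relatives of IAA14, differed by 1.27 ± 0.35 (called), -0.64 ± 0.09 (not called) and -3.89 ± 0.23 (called).

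Auxin transport genes were split (median -0.31). Towards roots 2 of 4 were called (24.8% of all genes tested) and towards flower buds 1 (30.2% of all genes). LAX3, the influx carrier of cells that overlie a primordium, was higher in roots by -2.02 ± 0.17 and AUX1, another influx carrier, by -1.17 ± 0.14. The efflux carrier gene PIN7 was higher in flower buds by 1.25 ± 0.19, and PIN3, another efflux carrier gene, was not called, at 0.54.

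Downstream lateral root genes were split as well (median 0.72). Of 11 tested, 3 were called towards roots (27.3%, against 24.8% of all genes) and 5 towards flower buds (45.5%, against 30.2%). The expansin genes EXPA17 and EXPA14, wall-loosening genes that LBD18 activates, were higher in roots by -8.74 ± 0.15 and -3.73 ± 0.13 (adjusted p of at most 4.52e-08), and both were well above background on all 8 arrays. LRP1, a marker of the lateral root primordium, differed by -1.30 ± 0.12. Higher in flower buds were the receptor kinase gene ACR4 at 3.41 ± 0.10, PLT7 at 2.68 ± 0.28 and PLT5 at 1.81 ± 0.23, both of the PLETHORA family, the receptor gene HAE at 1.82 ± 0.18, which acts in floral abscission and in emergence, and CRF2 at 1.12 ± 0.16. HSL2, CRF3 and MYB77, whose product binds ARF7, were not called, at 0.72, -0.57 and 0.09.

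Cell cycle genes that act in lateral root formation were called towards flower buds in 4 of 5 cases (median 1.12). The share over all genes tested was 30.2%. The mitotic cyclin gene CYCB1;1 differed by 2.50 ± 0.20, the E2F factor gene E2FA by 1.57 ± 0.12, the kinase gene CDKB1;1 by 1.12 ± 0.13 and the inhibitor gene KRP2 by 1.05 ± 0.16. ALF4, needed for the first pericycle divisions, was not called, at -0.25.

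**Figure D4:**
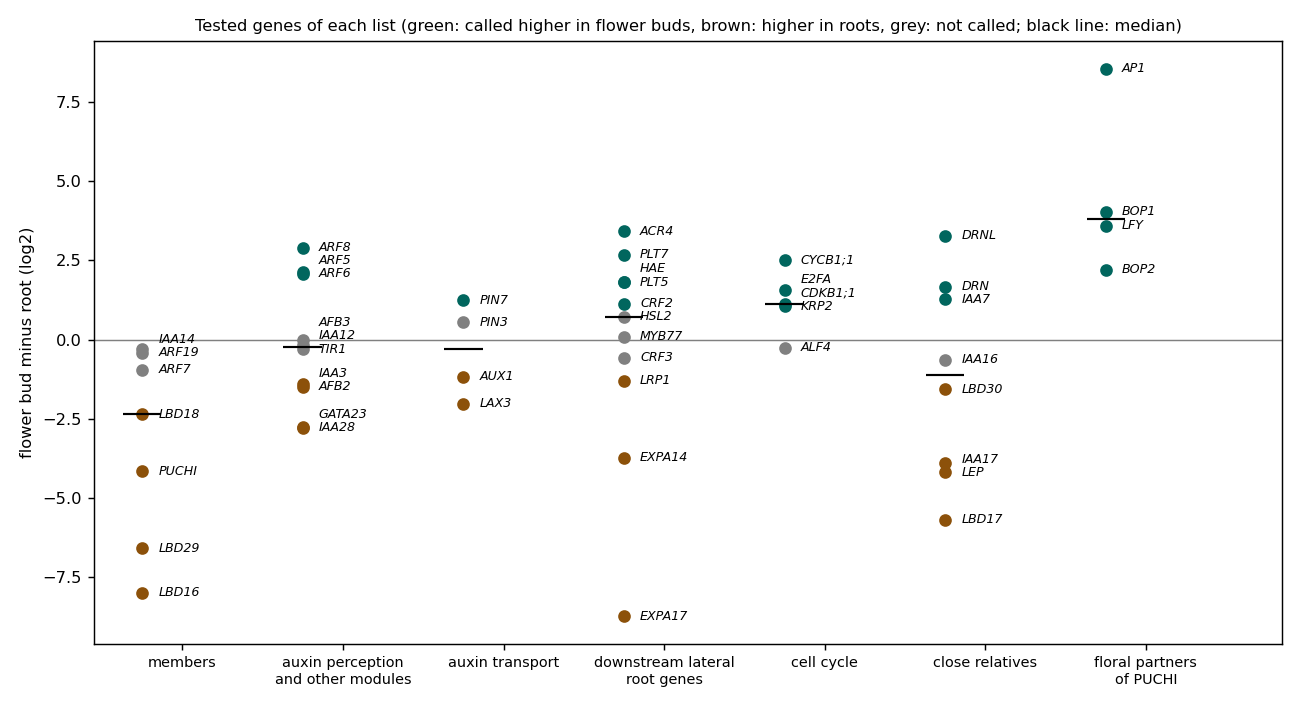
Difference between flower buds and roots (y axis, log2) of the 7 members and of the 42 tested genes of 6 lists, each point a gene, green where called higher in flower buds, brown where called higher in roots and grey where not called, with black lines at the medians. The members lie at or below -0.30, whereas all lists but that of the floral partners hold genes on both sides of 0.

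Close relatives of the members, 8 of them tested, were called towards roots in 4 cases and towards flower buds in 3 (median -1.11). The shares over all genes tested were 24.8% and 30.2%. The floral partners BOP1, BOP2, LFY and AP1 were all higher in flower buds: AP1 by 8.55 ± 0.24, LFY by 3.59 ± 0.22, BOP2 by 2.21 ± 0.28 and BOP1 at least 11.2-fold. AP1 was well above background on 3 and LFY on 2 of the 4 root arrays. The relatives DRN and DRNL act in floral organ founder cells. By bounds built as for LBD16, they were at least 2.48-fold and 5.10-fold higher in flower buds, and single spots would give smaller folds. The relative LEP, like PUCHI, was higher in roots, by -4.19 ± 0.14. PUCHI was called in the direction opposite to all 4 of its floral partners, but the filter largely set this contrast. PUCHI entered the test through the root arrays alone, and BOP1, LFY and AP1 through the flower bud arrays alone. Any calls of theirs were bound to point in opposite directions. Of the partners, only BOP2 was well above background on all 8 arrays.

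The LBD family gave the background for LBD16, LBD18 and LBD29. Of 40 genes with an LBD number among their names, 31 were tested, 18 of them called towards roots, 10 towards flower buds and 3 in neither direction. These shares, 58.1% and 32.3% of the family, stand against 24.8% and 30.2% of all genes tested. Without the members the shares were 53.6% and 35.7%. Of the 31 tested, 16 were well above background on all arrays of both tissues. The rest entered the test through the root arrays alone or the flower bud arrays alone, which favoured calls towards that tissue in advance. LBD16 and LBD29 belonged to 4 LBD genes that were well above background in roots and on no flower bud array, the others being LBD14, at least 107-fold above flower buds, and LBD17. Their order cannot be read from bounds. LBD18 lay further in, 14th of the 18 genes called towards roots. At the other end LBD2 exceeded roots at least 376-fold, LBD21 differed by 5.94 ± 0.21 and LBD27, the SIDECAR POLLEN gene of microspores, exceeded roots at least 20.5-fold. The median of the 28 without the members was -1.67.

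**Figure D5:**
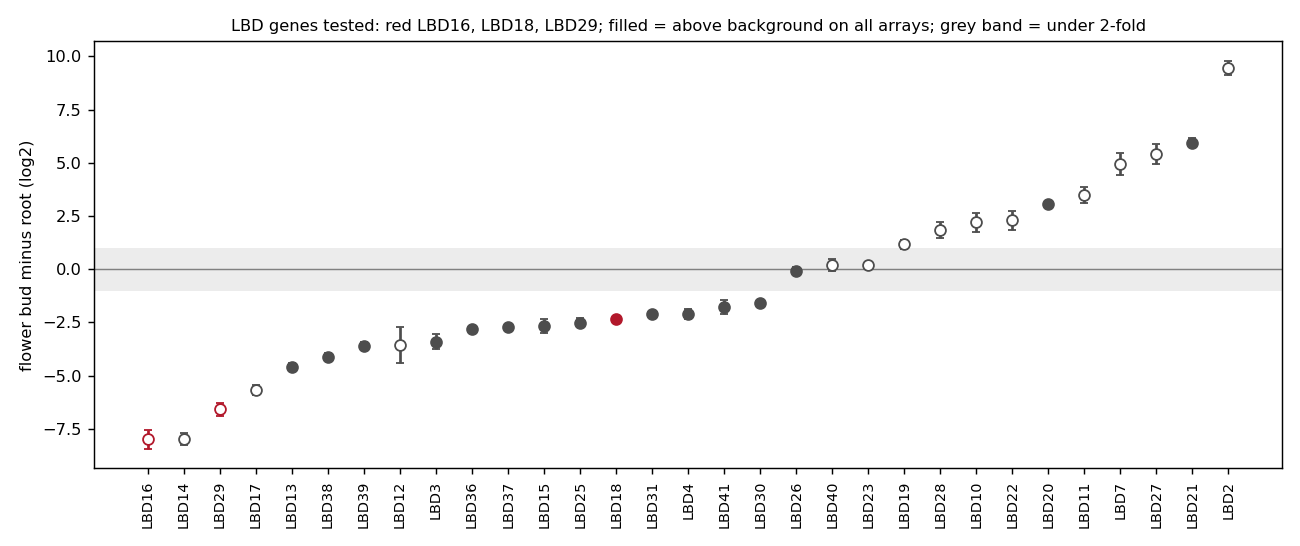
Fitted difference between flower buds and roots (y axis, log2, with SE) of the 31 tested LBD genes in ascending order (x axis), LBD16, LBD18 and LBD29 in red, open unless well above background on all 8 arrays. LBD16 and LBD29 lie among the 4 open points at the root end, whose order cannot be read, and LBD18 lies 14th of the 18 genes called towards roots.

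Genes next to the members on the chromosome were also read, a comparison chosen after the data were seen. On the sides of LBD16 the directions were opposite: ZFP11 was higher in flower buds by at least 33.9-fold, whereas LBD17, a close relative of LBD16, was higher in roots by at least 22.8-fold and, like LBD16, not well above background in flower buds. On the sides of LBD18, AHL22 was higher in roots by -7.45 ± 0.21 (adjusted p = 1.22e-08), and LBD19 was higher in flower buds, at 1.18 ± 0.21 (adjusted p = 0.000964), with 3 of its 4 root arrays well above background. Both neighbours of IAA14 were higher in flower buds, IAA1 by 1.51 ± 0.23 and NF-YB3 by 3.22 ± 0.26. Of the genes beside ARF7, CPN20 was higher in flower buds by 1.57 ± 0.09 and AT5G20740 by at least 2059-fold. Beside LBD29, AT3G58200 was higher in flower buds by 1.61 ± 0.22 and AT3G58180 was not called, at -0.07. Beside ARF19, AT1G19230 was higher in roots by -1.76 ± 0.18, and AT1G19210 was not tested. The genes on both sides of PUCHI were higher in flower buds, EMB269 by 3.77 ± 0.13 and AT5G18550 by 2.04 ± 0.12. LBD30, a relative of LBD18 elsewhere in the genome, was higher in roots by -1.57 ± 0.12.

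Profiles most like those of the members were sought among 7982 named genes that were well above background on all 8 arrays. With Pearson's r over the 8 arrays, which share slide, tissue contrast and scaling, ARF7 was most like LARP6a (r = 0.998) and MTPA2 (r = 0.998), and LBD18 most like IDH2 and ASAT1 (r = 0.999 for both). ARF19 was most like VPS9A (r = 0.982) and MYA2 (r = 0.972), and IAA14 most like PPa3 (r = 0.948) and SCPL34 (r = 0.945). These values describe the shape of a profile and not its size, since MTPA2 differed by -4.39 between tissues where ARF7 differed by -0.95.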

How the data were processed

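Per the file headers, the authors' scanner files held spot intensity from Agilent Feature Extraction 10.10.1.1 on 1-colour Cy3 arrays, background-subtracted within each array and not scaled between arrays. The deposited value table held log2 values. Its columns correlated at 1.00 (rounded) with scanner values scaled as here and centred on each probe's median, with medians of -0.01, 0.09, 0.09 and 0.03 in roots and of -0.01, -0.05, -0.04 and -0.06 in flower buds. Its scale, centring and direction thus matched the scanner values.

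Control spots and outlier spots were left out, spots sharing a probe were averaged as log2 processed signal, and the array's 75th percentile was subtracted. In 6 files 408 repeated lines, identical to their first copies, were dropped. Transcript accessions matched 34285 of 43603 probes to 1 locus through the RefSeq table (TAIR10.1). Which probes stand for a gene thus rests on that annotation. It was otherwise used for names and gene order alone, because the array design names another build. A probe counted as well above background where no more of its spots failed than passed the scanner's flag. Genes were tested if this held on all 4 arrays of a tissue, with limma 3.58.1 in R 4.3.3, tissue as the single factor and Benjamini-Hochberg adjustment. The fit was tested on simulated data. Where all 4 arrays of a tissue failed that flag, the fold is a bound. Every bound was set as for LBD16, from probe averages and not from single spots. Each fold given as at least a value refers to that bound, and single spots can give smaller folds.

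Members, lists and tests were chosen with earlier results of these data known. All members were named, and from each list the 3 largest called and the 2 smallest differences; lists of 5 or fewer were named in full. From the auxin transport list 1 gene was left out of lists and counts and is not reported here. From the LBD family the 3 largest called differences in each direction were named, and the 2 most alike genes for each member well above background on all arrays. The normexp alternative used median spot signal, since the files used here hold no mean spot signal. The other alternatives were median centring, quantile normalization, other filters and probes, the value table, a replicate block, limma-trend and leaving out each array.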

Additional observations from a re-analysis of the deposited data

How the results depend on the processing

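LBD16, LBD18, LBD29 and PUCHI were called higher in roots under every alternative in which they were tested; with the filter to genes well above background on all 8 arrays, LBD18 was the 1 member called, because the filter removed the other 3. No member changed sign under any alternative. ARF7 was called with centring on the array median (-1.11), with the mean of all probes of a gene (-1.19) and on its other probe (-1.42). IAA14 was called on its other probe (-1.54). With the mean of all probes IAA14 differed by -0.92 (limma, adjusted p = 0.0081), which passed the adjusted p but not the 2-fold limit. The cause of these changes was not tested. The genes called higher in flower buds numbered 6730 as reported and 4002 with that filter. The median over all genes was 0.15 as reported, 0.02 under normexp and -0.01 with median centring. Leaving out 1 array moved the within-array difference LBD16 minus LBD29 between -1.64 and -1.27, with an adjusted exact permutation p of 0.0571 without any 1 root array; both probes are at bounds in flower buds, and nothing is read from this pair. Replicate numbers were not used as pairs, since same-numbered deviations from the tissue means correlated at -0.27, 0.04, -0.01 and 0.10; the replicate block gave 5509 genes higher in roots and 6695 in flower buds, against 5516 and 6730 without it, and changed the call of no member. No Dixon test of the 14 member and tissue groups flagged an array, but with 4 values per group such a test can miss a deviant array. Flower bud replicate 1 stood above its tissue mean by 1.385 for LBD16 and by 0.699 for LBD29, both not well above background. Signal near background limits the size of the LBD16, LBD29 and PUCHI differences, and the number of arrays limits precision.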
